A study of Mus musculus with 22 samples.

Results

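The mitochondrial ribosomal protein genes, Mrpl for the large subunit and Mrps for the small subunit, were followed in 2 brain regions of Ts66Yah mice and wild-type (wt) littermates, the hippocampus (HIP) and, as its main cortical input, the entorhinal cortex (EC). The genes were taken by name, as every protein-coding gene of the count table whose symbol begins with Mrpl or Mrps followed by a number, which gave 78 of the 55385 genes listed, 29 named Mrps and 49 named Mrpl. Mrpl39 and Mrps6 lie in the segment of mouse chromosome 16 that Ts66Yah mice carry in an additional copy. The other 76 genes lie outside it, on 17 chromosomes counted together with the triplicated pair, and these partner subunits were compared between genotypes beside Mrpl39 and Mrps6. Of the 78 genes, 77 passed the filter on low counts, and Mrpl53 did not, with 0 to 16 reads per library.

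The Ts66Yah line, which models Down syndrome, was made with CRISPR/Cas9 from the Ts65Dn line. Its minichromosome holds the distal part of chromosome 16 without the centromeric part of chromosome 17 that Ts65Dn carries in addition. RNA-Seq was performed on 22 libraries, a HIP and an EC library from each of 11 adult males: 5 wt and 6 Ts66Yah, with no treatment named in the labels. According to the study's methods, the line descends from a mosaic founder male and is kept on the mixed B6C3B background. Total counts ranged from 25.9 to 50.1 M per library, with Mrpl39 at 607 to 1481 reads and Mrps6 at 251 to 723 reads. The values describe RNA of whole tissue, in which fewer cells of a type and less RNA per cell cannot be told apart.

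The mitochondrial ribosome translates the few mRNAs encoded in mitochondrial DNA, all of them for subunits of the respiratory chain and of ATP synthase. Its ribosomal RNAs are transcribed inside the organelle, whereas its proteins are encoded in the nucleus, made in the cytosol and imported, and many of them have no counterpart in bacterial ribosomes. Mrps6 encodes the homologue of bacterial S6, the partner of S18 in the small subunit. Mammals have 3 homologues of S18: Mrps18c and Mrps18b belong to the small subunit, and Mrps18a, in spite of its name, to the large subunit. Mrpl39 encodes a protein of the large subunit that bacterial ribosomes lack.

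Mrpl39 (ENSMUSG00000022889) lies at chr16:84717576-84735742 on the minus strand (GRCm38, GENCODE M21) and shares no exon with another gene. Mrps6 (ENSMUSG00000039680) lies at chr16:92058270-92112227 on the plus strand, and 19.9% of its exon bases overlap exons of Slc5a3 and Gm49711 on the same strand. Slc5a3, the sodium/myo-inositol cotransporter, is triplicated as well. The sequences near their starts are shown because the pair of genes moved with the copy number, and because several regulators of mitochondrial genes are known to act at such sites. Sequences and start sites are those of RefSeq (GRCm38.p6). The first line gives the bases of the Mrps6 window that precede its earliest annotated start, chr16:92058086-92058269 on the plus strand, with GC boxes (GGGCGG, 4 copies, the first pair sharing 1 base) in capitals. The second gives chr16:84735350-84735379 on the minus strand, 30 bases of Mrpl39 around the palindrome bound by NRF1, an activator of nuclear genes for mitochondria, which is in capitals and begins at position -125 from the RefSeq start. That stretch lies inside the first exon of the longest GENCODE transcript of Mrpl39, which starts at 84735742.
Mrps6: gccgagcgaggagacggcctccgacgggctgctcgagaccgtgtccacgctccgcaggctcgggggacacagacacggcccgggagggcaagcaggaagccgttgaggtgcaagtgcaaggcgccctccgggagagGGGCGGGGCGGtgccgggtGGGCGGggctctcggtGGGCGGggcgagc
Mrpl39: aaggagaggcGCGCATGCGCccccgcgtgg

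RefSeq promoter windows, 250 bases before to 50 bases after a start, were found for 69 of the 78 genes (75 windows). The NRF1 palindrome was present in 3 of the 75 windows (4.0%) and in 0.971% of all 32851 windows, searched on both strands. The core bound by GABPA (CCGGAAG), an ETS factor of nuclear genes for mitochondria, was present in 26 windows (34.7%) against 8.86% of all windows, and neither Mrpl39 nor Mrps6 held it. A YY1 site (AAGATGGCG) was in 8 windows (10.7%) against 1.4%, and a GC box in 39 (52.0%) against 35.7%. The 3 homologues of S18 all held the GABPA core, and they are shown with the core in capitals: Mrps18a at chr17:46110968-46110994 on the plus strand, Mrps18b at chr17:35916391-35916407 on the minus strand, where the window ends with the core, and Mrps18c at chr5:100798593-100798619 on the plus strand. A match of letters is a description of the window and not a measured binding site.
Mrps18a: cacccctgctCCGGAAGcggaagtgca
Mrps18b: cgcagtcgctCTTCCGG
Mrps18c: ggtcacgtgaCTTCCGGcccgggaagc

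Mrpl39 was higher in every Ts66Yah library than in every wt library of the same region. In wt HIP its level was 23.3, 23.1, 25.4, 22.9 and 24.2 CPM (counts scaled to a library of 1 M, with TMM factors over all libraries), and in Ts66Yah HIP it ran from 34.4 through a median of 35.2 to 37.7 CPM. The means were 23.8 ± 1.02 (SD, n = 5) and 35.6 ± 1.17 (SD, n = 6). In the EC the wt libraries held 24.9, 25.6, 26.0, 26.0 and 27.1 CPM, and the Ts66Yah libraries ran from 35.9 through a median of 38.7 to 40.5 CPM. The genotypes did not overlap in either region, and the gap between them was wider than the range within either genotype. The log2 fold change was 0.58 (SE 0.0478, adjusted p = 1.53e-05, edgeR's quasi-likelihood test, Benjamini-Hochberg adjusted across the genes tested) in the HIP and 0.57 (SE 0.0547, adjusted p = 0.000224, edgeR) in the EC, 1.5-fold and 1.49-fold. Neither differed detectably from the 1.5-fold that an additional copy would give in proportion (adjusted p = 0.931 and 0.815, edgeR), and the 95% intervals on the log2 scale ran from 0.48 to 0.68 and from 0.45 to 0.69.

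Mrps6 was higher in Ts66Yah mice with a wider spread among wt animals. Its level in wt HIP was 9.69, 10.8, 12.4, 9.48 and 13.7 CPM, and in Ts66Yah HIP it ran from 15.1 through a median of 15.99 to 17.3 CPM. The 6 Ts66Yah libraries lay above the 5 wt libraries in the HIP. In wt EC the level was 11.4, 12.2, 13.3, 11.3 and 15.7 CPM, and in Ts66Yah EC it ran from 15.3 through a median of 17.9 to 20.6 CPM. Here the highest wt library, replicate 5, reached into the range of the Ts66Yah libraries. The log2 fold change was 0.51 (SE 0.0927, adjusted p = 0.0207, edgeR) in the HIP, where the call was made, and 0.50 (SE 0.106, adjusted p = 0.1002, edgeR) in the EC, where it was not. The EC call was made without wt replicate 5 (adjusted p = 0.0223, edgeR), and the HIP call was lost without wt replicate 1, wt replicate 4, Ts66Yah replicate 3 or Ts66Yah replicate 4 (adjusted p between 0.0501 and 0.0572, edgeR). Neither estimate differed detectably from 1.5-fold (adjusted p = 0.461 and 0.464, edgeR). Slc5a3, which shares exon sequence with Mrps6, gave 0.59 (SE 0.0903, adjusted p = 0.00568, edgeR) in the HIP and 0.54 (SE 0.106, adjusted p = 0.0603, edgeR) in the EC, and how far shared reads enter the Mrps6 counts was not tested.

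When the HIP and EC counts of each animal were added, both genes were called, Mrpl39 at 0.57 on the log2 scale (SE 0.0402, adjusted p = 7.47e-06, edgeR) and Mrps6 with 0.50 (SE 0.0847, adjusted p = 0.0132, edgeR). For all genes tested, 0.591% were called in the HIP, 0.283% in the EC and 0.573% in the sums. Against this background, 2 of the 77 tested members were called in the HIP, 1 of 77 in the EC and 2 of 77 in the sums, all of them triplicated and higher.

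**Figure D1:**
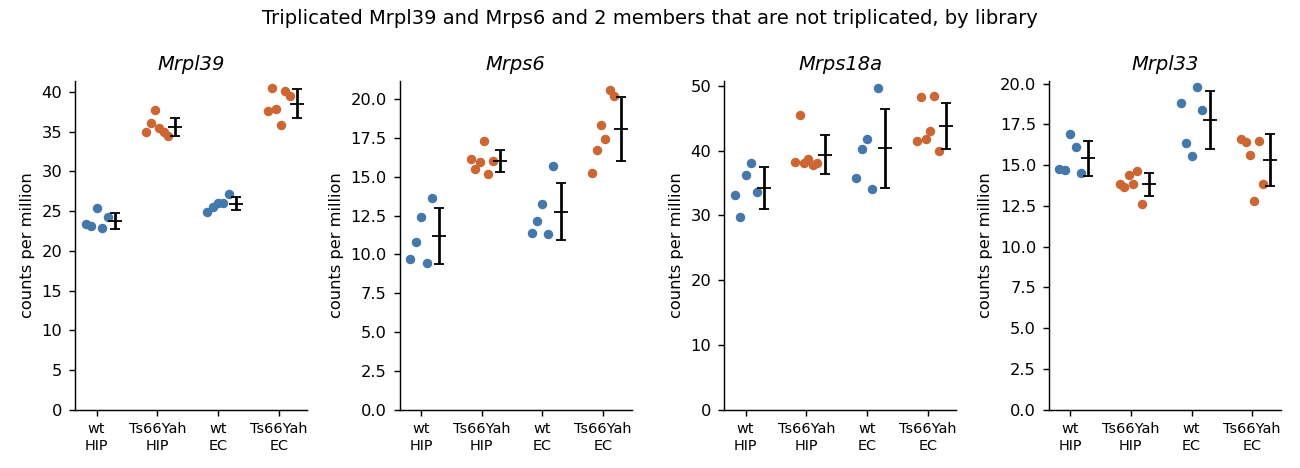
Levels (CPM) of Mrpl39, Mrps6, Mrps18a and Mrpl33 in each library by genotype and region; points are libraries (wt blue, Ts66Yah orange) and the black bar is the group mean with its SD. Mrpl39 separates the genotypes in both regions, Mrps6 in the HIP, and the 2 members that are not triplicated overlap between genotypes.

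Of the 75 tested partners, 0 were called in the HIP, in the EC or in the animal sums by the edgeR test. Over the partners the log2 fold change had medians of -0.03 (HIP), 0.01 (EC) and -0.01 (sums), beside medians of 0.00 for all tested genes. Single partners lay between -0.59 and 0.29 in the HIP, and between -0.22 and 0.29 in the EC. At an unadjusted p under 0.05, 4 partners were higher and 11 lower in the HIP (20% of the 75), where 11.9% of all tested genes were past it, 5.44% higher and 6.42% lower. In the EC 0 partners were higher and 1 lower (1.33%), against 6.25% of all genes, 2.79% higher and 3.45% lower. In the sums 3 were higher and 1 lower (5.33%), against 10.3% of all genes, 5.2% higher and 5.07% lower. DESeq2 called 1 partner in the HIP, Mrps17, and 0 for the EC or the sums. The share of all genes that DESeq2 called is not given here, so this call has no background beside it.

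The partners were also tested against the 1.5-fold change of the triplicated pair, since a p that misses the threshold against no change does not show that a gene stayed level. In the HIP, 74 of the 75 partners were below 1.5-fold at an adjusted p under 0.05 (98.7%, against 82.3% of all tested genes), the exception being Mrpl27. In the EC, 72 of the 75 were below it (96%, against 81.7%), and Mrps34, Mrpl34 and Mrpl52 were not. In the sums 74 of the 75 were below it, against 81.8% of all genes, and Mrps34 was not. The log2 fold change was within 0.2 of no change for 61 partners in the HIP, 72 in the EC and 74 in the sums. The exceptions had wide intervals: the interval of Mrps34, a gene whose exons overlap Nme3 and Mapk8ip3, ran from -0.88 to 1.47 in the EC.

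**Figure D2:**
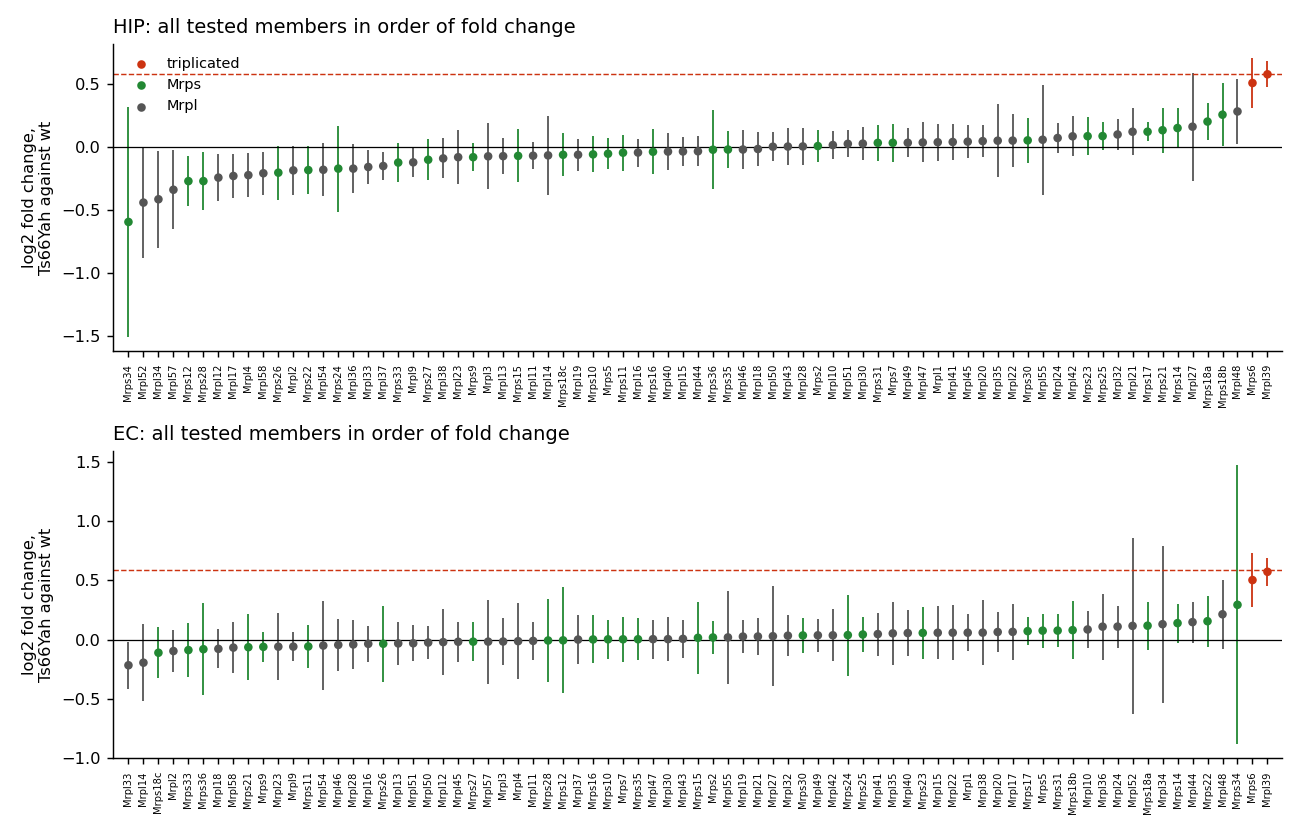
Log2 fold change of Ts66Yah against wt for the 77 tested members in the HIP (top) and the EC (bottom), in order of size; points are estimates, bars are 95% intervals, and the dashed line marks 1.5-fold. Mrpl39 and Mrps6 (red) stand at the right end in both regions, and the other members lie around 0.

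Within each library the triplicated genes were set against the other proteins of their own subunit, and the ratios differed between genotypes. The subunit was the one a protein belongs to and not that of its name. This places Mrps18a and Mrps30 in the large subunit and Mrps36 in neither. A log2 ratio of 0 is the level of the median partner, and single partners could lie higher. Mrpl20, for example, had a mean of 55.2 CPM in Ts66Yah HIP, where Mrpl39 had 35.6 CPM. The log2 ratio of Mrpl39 to the median of 49 large-subunit partners was 0.02 to 0.14 in wt HIP and 0.61 to 0.78 in Ts66Yah HIP, a difference in means of 0.60 or 1.51-fold. In the EC the ratio was -0.15 to 0.17 in wt and 0.51 to 0.68 in Ts66Yah libraries, a difference of 0.59. The log2 ratio of Mrps6 to the median of 25 small-subunit partners was -1.06 to -0.44 in wt HIP and -0.32 to 0.04 in Ts66Yah HIP. In the EC it was -0.76 to -0.64 in wt and -0.42 to 0.02 in Ts66Yah, so that the ratio of Mrps6 separated the genotypes in the EC although its CPM did not. The summed level of the partners gave no such gap. The large-subunit partners added up to 1241 ± 78.7 CPM (SD, n = 5) in wt HIP and 1216 ± 36.5 CPM (SD, n = 6) in Ts66Yah HIP, and to 1365 ± 137 and 1380 ± 83.7 CPM in the EC. The small-subunit partners added up to 525 ± 25.7 and 518 ± 15.4 CPM in the HIP and to 589 ± 53.8 and 600.0 ± 23.7 CPM in the EC, and the genotypes overlapped in each of these sums.

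By role, the 16 small-subunit proteins with a bacterial homologue, Mrps6 among them, had medians of -0.05 (HIP) and 0.00 (EC) for the log2 fold change. The 10 small-subunit proteins particular to mitochondria had -0.06 and 0.05. The 30 large-subunit proteins with a bacterial homologue had -0.04 and 0.01. The 20 tested of 21 large-subunit proteins particular to mitochondria, Mrpl39 among them, had 0.01 and 0.03. Mrpl39 and Mrps6 were the called members of these 4 groups in the HIP, and Mrpl39 in the EC. Mrps36, whose product is a component of the alpha-ketoglutarate dehydrogenase complex in spite of its name, was placed in none of them.

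The 3 homologues of S18 did not follow Mrps6 together. Mrps18a of the large subunit was at 33.2, 29.7, 36.2, 38.1 and 33.7 CPM in wt HIP and ran from 37.8 through a median of 38.2 to 45.5 CPM in Ts66Yah HIP. The highest wt library lay above the lowest Ts66Yah library. Its log2 fold change was 0.20 (SE 0.0692, adjusted p = 0.253, edgeR) in the HIP and 0.12 (SE 0.0944, adjusted p = 0.939, edgeR) in the EC. Mrps18b of the small subunit gave 0.26 (SE 0.116, adjusted p = 0.399, edgeR) in the HIP and 0.08 in the EC. Mrps18c, the closest counterpart of bacterial S18, gave -0.06 (SE 0.0792, adjusted p = 0.830, edgeR) in the HIP and -0.11 in the EC, with 95% intervals from -0.23 to 0.11 and from -0.32 to 0.10. All 3 were below 1.5-fold in both regions (adjusted p at most 0.0181, edgeR).

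Among the other partners with the smallest p in the HIP was Mrps17, the homologue of bacterial S17. It was at 59.5, 57.1, 57.1, 57.1 and 56.3 CPM in wt HIP and ran from 61.8 through a median of 62.1 to 64.7 CPM in Ts66Yah HIP, so the genotypes did not overlap. It was one of 3 members without overlap in the HIP, with Mrpl39 and Mrps6, but the share of all genes without overlap was not counted. The log2 fold change was 0.12 (SE 0.0352, adjusted p = 0.166, edgeR), with adjusted p = 0.0254 by DESeq2, and in the EC it was 0.07 (adjusted p = 0.934, edgeR). On the other side stood Mrps12, whose bacterial homologue S12 lies at the decoding site, with -0.27 (SE 0.0934, adjusted p = 0.270, edgeR), Mrpl17 with -0.23 (SE 0.0806, adjusted p = 0.281, edgeR) and Mrpl37 with -0.15 (SE 0.0516, adjusted p = 0.270, edgeR). In the EC those 3 were at -0.01, 0.06 and 0.00. The partners with the smallest p in the EC were Mrpl33, Mrpl44, Mrps14, Mrpl48 and Mrps22. Mrpl33, a homologue of bacterial L33, gave -0.22 (SE 0.0925, adjusted p = 0.749, edgeR) in the EC and -0.16 (adjusted p = 0.349, edgeR) in the HIP. Its wt EC libraries held 18.8, 16.3, 15.6, 19.8 and 18.4 CPM, and its Ts66Yah EC libraries ran from 12.8 through a median of 16.02 to 16.6 CPM, with overlap. Mrpl44, Mrps14, Mrpl48 and Mrps22 lay between 0.14 and 0.21 in the EC, with adjusted p from 0.871 to 0.906 (edgeR). Mrpl48 and Mrps14 have near-identical processed pseudogenes. In all 25 members have a near-identical copy, which for Mrps34 is the protein-coding gene Nme3, and how far the counting could split reads between copies is not stated.

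The other genes of mitochondrial translation were taken from lists of known function. Gabpa, the DNA-binding subunit of the ETS factor named above, is itself triplicated. It was at 25.003 to 31.1 CPM in wt HIP and 33.1 to 43.0 CPM in Ts66Yah HIP, without overlap, and its log2 fold change was 0.53 (SE 0.0739, adjusted p = 0.00197, edgeR). In the EC it gave 0.46 (SE 0.0905, adjusted p = 0.0603, edgeR), and the genotypes overlapped. Of the 25 tested partners whose window held the GABPA core, 0 were called in either region, and the medians of their log2 fold changes were -0.06 (HIP) and 0.00 (EC). The 41 partners whose window lacked it had medians of 0.01 and 0.02, and 0 were called.

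Gabpa was the called gene among 16 regulators of nuclear genes for mitochondria and of mitochondrial transcription. None of the 5 mitoribosomal proteins with other names, 25 genes of mitoribosome assembly and rRNA modification, 15 translation factors, 17 mitochondrial aminoacyl-tRNA synthetases, 13 mitochondrially encoded mRNAs and 2 mitochondrially encoded rRNAs was called for genotype by edgeR in the HIP, the EC or the sums. At an unadjusted p under 0.05 stood 11.9% of all tested genes in the HIP, 6.25% in the EC and 10.3% in the sums. In the HIP these were 1 of the 5 proteins with other names (20%), 2 of the 25 assembly genes (8%) and 3 of the 17 synthetases (17.6%). Of the 16 regulators 2 were higher and 2 lower there (25%, Gabpa included). The EC had 3 assembly genes (12%), 1 translation factor (6.67%) and 12.5% of the regulators. For the sums the shares were 4% of the assembly genes, 13.3% of the translation factors, 11.8% of the synthetases and 18.8% of the regulators. Gadd45gip1, a large-subunit protein with another name, gave -0.32 (SE 0.149, adjusted p = 0.418, edgeR) in the HIP, Trub2, a pseudouridine synthase, -0.15 (SE 0.0627, adjusted p = 0.735, edgeR) in the EC, and Tars2, the mitochondrial threonyl-tRNA synthetase, 0.14 (SE 0.0492, adjusted p = 0.270, edgeR) in the HIP. Slirp, a stabilizer of mitochondrial mRNAs, gave 0.44 (SE 0.0959, adjusted p = 0.0722, edgeR) in the sums. The 12S rRNA mt-Rnr1 gave 0.23 (adjusted p = 0.544, edgeR) in the HIP, and mt-Nd3, a complex I subunit, gave 0.43 (adjusted p = 0.421, edgeR). The labels name poly(A) selection. The study's methods name a kit with ribosomal RNA depletion and also describe the extracted molecules as polyA RNA. How far either step set the rRNA counts was not tested. Tfb1m, the dimethyltransferase of the 12S rRNA, lies in the chromosome 17 region that was deleted from the minichromosome, and gave 0.17 (SE 0.0968, adjusted p = 0.518, edgeR) in the HIP and 0.04 (SE 0.0970, adjusted p = 0.989, edgeR) in the EC. The 76 cytosolic ribosomal proteins had medians of -0.08 in the HIP and -0.10 in the EC, with 0 called in either region. At an unadjusted p under 0.05, 1 was higher and 12 lower in the HIP (17.1%, against 11.9% of all genes). In the EC 1 was higher and 7 lower (10.5%, against 6.25%), and in the sums 4 were higher and 15 lower (25%, against 10.3%). In the sums 1 was called, lower (1.32%, against 0.573% of all genes called), Rpl7a with -0.39 (SE 0.0793, adjusted p = 0.0440, edgeR).

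More members were called between regions than between genotypes, as was the case for all tested genes. In wt mice 18 members were higher and 1 lower in the EC than in the HIP, where 23.4% of all tested genes were higher and 24.3% lower. In Ts66Yah mice 39 members were higher and 1 lower, against 26.4% and 27.5% of all tested genes. Without a block the share of members called higher was 23.4% in wt, that of all genes, and 50.6% in Ts66Yah, and the share called lower was 1.3% in both. With the animal as a block, since both libraries of an animal share it, 28 members (36.4%) were higher and 1 (1.3%) lower in wt, where 26.3% of all genes were higher and 27% lower. In Ts66Yah mice 46 members (59.7%) were higher and 2 (2.6%) lower with the block, against 28.9% and 30.1% of all genes. The median log2 fold change of the members was 0.17 in wt and 0.19 in Ts66Yah, beside 0.01 for all genes in both. The interaction of genotype and region was called for 0 of 77 members (0% of all genes), and at an unadjusted p under 0.05 for 2 members, Mrps22 and Mrpl17, against 2.03% of all genes. DESeq2 called 0 members in the interaction. The larger count in Ts66Yah is therefore not shown to be a difference between the genotypes.

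Of the 18 members higher in the EC of wt mice, 16 were also higher in Ts66Yah mice, which is 88.9% of the wt calls and 41.0% of the Ts66Yah calls. Mrpl16, the homologue of bacterial L16, led in both genotypes. It was at 19.99, 19.4, 19.8, 20.9 and 19.6 CPM in wt HIP and at 31.7, 31.7, 31.9, 35.7 and 36.6 CPM in wt EC. In Ts66Yah mice it ran from 17.7 through a median of 19.6 to 19.9 CPM in the HIP and from 29.8 through 33.1 to 35.2 CPM in the EC. The regions were apart in every animal, and the log2 fold change was 0.75 in wt (SE 0.0644, adjusted p = 1.18e-06, edgeR) and 0.75 in Ts66Yah (SE 0.0569, adjusted p = 6.4e-08, edgeR). Mrps25, a small-subunit protein particular to mitochondria, gave 0.52 (SE 0.0826, adjusted p = 0.000195, edgeR) and 0.47 (SE 0.0425, adjusted p = 3.87e-07, edgeR), although 69.8% of its exon bases face Nr2c2 on the other strand. Among the called members whose regions did not overlap, Mrpl46, Mrpl30 and Mrps14 came next with 0.41, 0.39 and 0.36 in wt and 0.38, 0.36 and 0.34 in Ts66Yah, each higher in the EC in all 11 animals. Called members with overlap between regions could differ as much or more, such as Mrpl14 with 0.53 in wt and 0.40 in Ts66Yah mice.

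Mrps9, the homologue of bacterial S9, was called lower in the EC in both genotypes, with and without the block. With the block Mrpl24 was called lower in Ts66Yah mice as well, and it lay lower in the EC in all 11 animals (-0.17 in wt and -0.14 in Ts66Yah on the log2 scale without the block, adjusted p = 0.0684 and 0.101, edgeR). In all, the fold change was negative for 14 members in wt and 6 in Ts66Yah mice. Mrps9 was at 32.1, 31.5, 34.4, 32.3 and 29.6 CPM in wt HIP and at 26.2, 25.7, 25.5, 24.9 and 27.8 CPM in wt EC. In Ts66Yah mice it ran from 28.8 through 30.2 to 31.9 CPM in the HIP and from 23.2 through 24.9 to 26.3 CPM in the EC. The regions did not overlap in either genotype, and the log2 fold change was -0.29 (SE 0.0606, adjusted p = 0.00142, edgeR) in wt and -0.28 (SE 0.0487, adjusted p = 0.000191, edgeR) in Ts66Yah. Mrpl39 and Mrps6 were not called between regions in the fits without a block, and their values with the block are not given here. Without the block Mrpl39 gave 0.13 in wt and 0.11 in Ts66Yah (adjusted p = 0.0861 and 0.0514, edgeR). Mrps6 gave 0.19 and 0.17 (adjusted p = 0.239 and 0.0620, edgeR). Mrpl39 was higher in the EC in 5 of 5 wt and 6 of 6 Ts66Yah animals, so a missed call does not show equal levels.

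**Figure D3:**
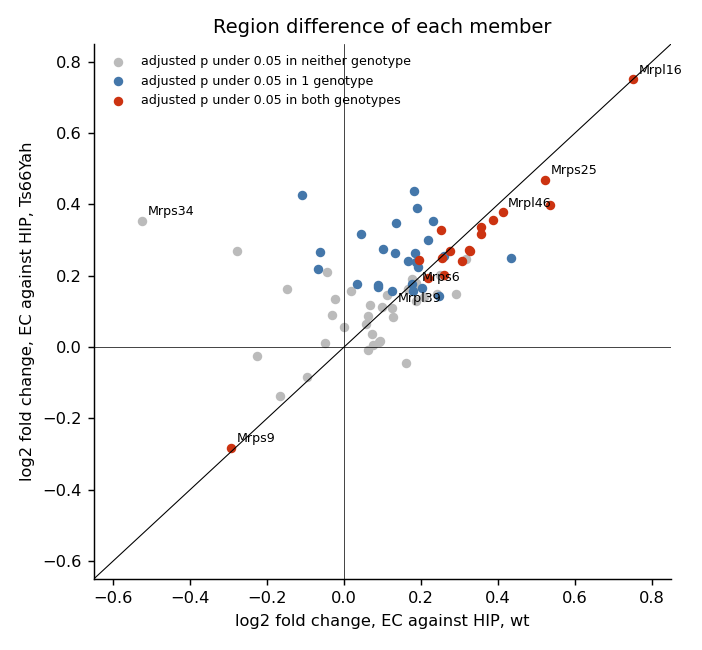
Log2 fold change of the EC against the HIP for each tested member, in wt (x axis) and Ts66Yah mice (y axis); colours give in how many genotypes the adjusted p was under 0.05, and the diagonal marks equal values. Most members lie above 0 on both axes, with Mrpl16 at 0.75 on both, and Mrps9 is the called member below 0 in the fits without a block.

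Within single animals, the median difference between the EC and the HIP over the 75 partners was above 0 in 10 of 11 animals. It ran from -0.01 in wt replicate 4 through a median of 0.18 to 0.31 in Ts66Yah replicate 5, on the log2 scale. The cytosolic ribosomal proteins were higher in the EC in all 11 animals, by medians of 0.01 to 0.49. Without a block 30 of their 76 genes (39.5%) were called higher in wt and 31 (40.8%) in Ts66Yah mice, against 23.4% and 26.4% of all genes. Lower calls were 0 in both, against 24.3% and 27.5% of all genes. The EC libraries of wt replicate 5 and Ts66Yah replicate 5 were the highest of all libraries for the partners, at 0.29 and 0.23 above the mean of the libraries, and for the cytosolic ribosomal proteins, at 0.47 and 0.42. Without wt replicate 5, and likewise without wt replicate 3, the count of members higher in wt EC was 12, and without Ts66Yah replicate 5 the count in Ts66Yah EC was 30.

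**Figure D4:**
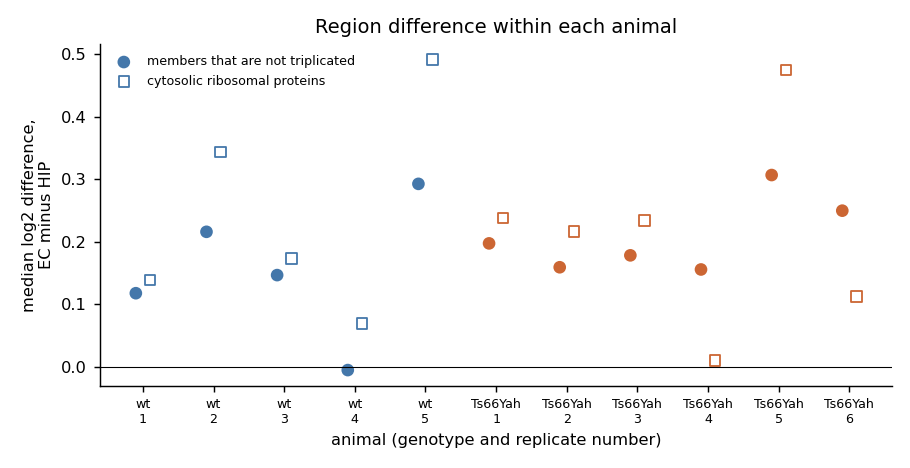
Median log2 difference between the EC and the HIP in each animal, for the 75 partners (filled circles) and the cytosolic ribosomal proteins (open squares), wt in blue and Ts66Yah in orange. The partners lie above 0 in 10 of 11 animals, and replicate 5 of each genotype is the highest for both groups of genes.

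The regions also differed in cell content. The summed level of 6 HIP markers was 603 to 797 CPM in HIP and 69.1 to 109 CPM in EC libraries, and that of 6 cortical markers was 134 to 192 CPM in the HIP and 429 to 722 CPM in the EC. Of the cortical markers 5 of 6 were higher in the EC in wt and 6 of 6 in Ts66Yah mice, and of the HIP markers 0 of 6 in both. The sums of both sets therefore followed the labelled tissue, although they do not tell the EC from other cortex. All 5 oligodendrocyte markers were lower in the EC, with sums of 1295 to 3292 CPM against 6822 to 9975 CPM in wt. The 4 neuronal markers had sums of 5861 to 7030 CPM in the EC against 5051 to 5355 CPM in the HIP of wt mice, and 3 of the 4 were higher in the EC. All 5 choroid plexus markers were lower in the EC, with sums of 9.66 to 41.3 CPM against 110 to 3266 CPM in wt, and all 4 microglial and all 4 endothelial markers were higher. Of the astrocyte markers 2 of 4 were higher in the EC, of the meningeal markers 4 of 5, and of the striatal markers 5 of 5 in wt and 3 of 5 in Ts66Yah mice. The part of these cells in the region difference of the mitochondrial ribosomal proteins was not tested. Between genotypes, the sums of neuronal markers in Ts66Yah mice were 0.996 times those of wt mice in the HIP and 0.995 times in the EC, and those of oligodendrocytes were 0.963 and 1.02 times. The HIP and EC ratios were 1.28 and 0.949 for meninges, 0.883 and 0.793 for striatum, 0.867 and 0.618 for choroid plexus, 0.949 and 0.912 for microglia, 1.03 and 0.972 for astrocytes and 1.003 and 0.961 for endothelial cells. The choroid plexus sums ran from 110 to 3266 CPM in wt HIP and from 761 to 2789 CPM in Ts66Yah HIP, with overlap, and its part in the HIP values was not tested.

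Levels per length were compared between genes as CPM per kilobase of exon. The 77 tested members spanned a 32.3-fold range, from 1.17 to 37.7, with a median of 9.62. Mrpl41, Mrpl20 and Mrpl28 of the large subunit were the highest, at 37.7, 33.4 and 27.4. Mrps36, Mrps35 and Mrps34 were the lowest, at 1.84, 1.73 and 1.17. Mrps36 has 8 near-identical pseudogenes and Mrps34 shares exon sequence with Nme3, and how far this lowered their counts was not tested. Mrpl39 stood at rank 25 with 12.4, and Mrps6 at rank 39 with 9.62, the median of the members. In wt HIP Mrpl39 was at 9.40 and in Ts66Yah HIP at 14.1, and Mrps6 was at 7.31 and 10.4. The exon length sums every annotated exon of a gene, so a gene with a long, little-used exon is understated.

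Within the genotype groups, several members varied with the animal in both regions. Deviations from the group means hold no genotype difference, so their correlation does not weigh the animal against the genotype. The correlation of HIP and EC deviations from the group means over the 11 animals was 0.97 for Mrpl35, 0.95 for Mrpl55, 0.92 for Mrpl27, 0.91 for Mrpl3 and 0.84 for Mrpl14, all named as proteins of the large subunit. The median was 0.32 for the 77 members and 0.29 for all tested genes, and 6 members (7.79%) were above 0.8, as were 4.89% of all genes. These correlations are descriptions, and both libraries of an animal share whatever sets that animal apart. Mrpl27 was at 15.0, 7.59, 16.7, 17.6 and 16.5 CPM in wt HIP, and the low animal, replicate 2, was the low one in the EC as well, at 11.3 CPM where the others held 17.5 to 21.5 CPM. This gene has 2 near-identical processed pseudogenes, and their part in its counts was not tested. Mrpl55 was at 10.7, 13.2, 16.5, 11.1, 21.8 and 21.0 CPM in Ts66Yah HIP and the animals held the same order in the EC, at 13.1, 16.2, 18.6, 13.2, 26.5 and 21.6 CPM. Averaged over both regions, the highest animal exceeded the lowest 1.79-fold for Mrpl35, 2.16-fold for Mrpl55, 2.41-fold for Mrpl27, 1.51-fold for Mrpl3 and 1.95-fold for Mrpl14. By the same measure Mrpl39 gave 1.59-fold, below these genes except Mrpl3. A wide spread was not particular to them, since Mrpl52 gave 2.53-fold with a correlation of 0.20. Each of the 5 genes overlapped between genotypes in both regions.

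**Figure D5:**
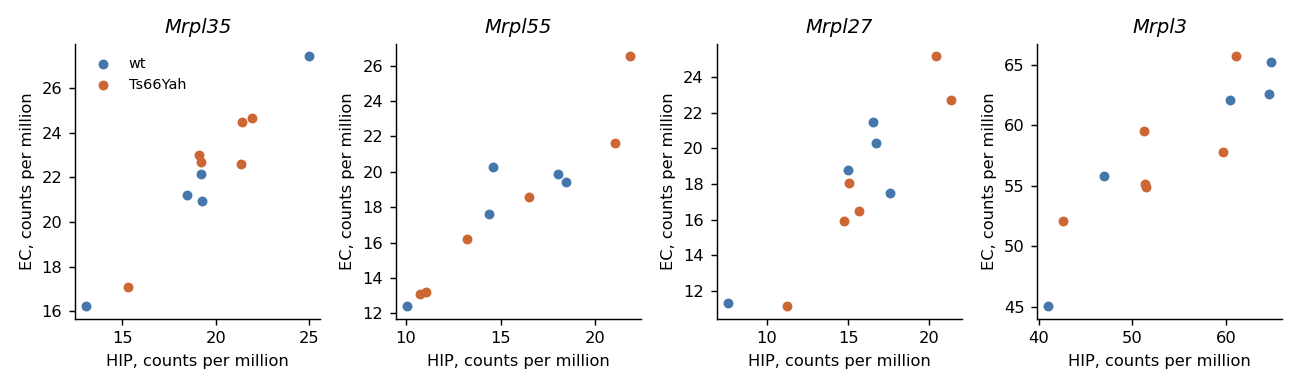
Levels (CPM) in the EC against the HIP of the same animal for Mrpl35, Mrpl55, Mrpl27 and Mrpl3; each point is 1 of 11 animals, wt in blue and Ts66Yah in orange. Animals low in one region tended to be low in the other, and the ranges of the genotypes overlap.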

How the data were processed

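RNA-Seq counts of 22 libraries were used. Per the study's methods, Hisat2 aligned the single-end HiSeq reads to GRCm38, and HTSeq-count then counted them over the genes of Ensembl. The submitters' processing notes also name mm10, bcl2fastq 2.17.1.14 and DESeq2. The strand setting, the handling of multi-mapping reads and most versions are not given in the sources used here, and the labels and the methods differ on the library kit. The authors deposited raw counts per gene, whole numbers with 25.9 to 50.1 M per library. Their tables of fold changes and p-values per region, deposited beside the counts, were not used. All columns of the count table were mapped to samples by label.

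Groups, replicate numbers and animal numbers came from the labels. Symbols, exons and the triplicated segment (chr16:84714140-98082450, Mir155 to the end of the chromosome) came from GENCODE M21; 55144 of 55385 identifiers matched. Pseudogenes named Mrpl or Mrps (5) were left out. Near-identical copies were found with blastn 2.17.0 (90% identity over 80% of a transcript of at least 200 bases).

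Counts were tested with edgeR 4.0.16 (R 4.3.3; TMM, filterByExpr, quasi-likelihood) within each region, on summed counts per animal, between regions within a genotype, and for the interaction over all libraries, adjusted by Benjamini-Hochberg across the genes tested, with a threshold of 0.05. The test against 1.5-fold placed the logarithm of 1.5 in the offsets for Ts66Yah. CPM values were scaled by TMM over the 22 libraries, and log2 values used a prior count of 2. The fit was tested on simulated data with known fold changes. No pair of libraries within a group was alike within sampling noise (chi-square per gene of at least 10.5). The labels do not say if animals share a litter or a batch.

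HIP and EC libraries of one animal carry the same animal number in the labels, and their deviations from the group means correlated at 0.21 to 0.45 over genes, each HIP library best with its own animal, so the animal pairs the regions. Wt and Ts66Yah animals with the same replicate number are different mice.

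Alternatives were DESeq2 1.42.0, limma 3.58.1 (voom), RLE factors, TMM factors without segment genes, no filter, a filter at 1 CPM in 5 libraries, a joint fit of every library, blocks, and each animal left out. A GC correction over 50 bins and leaving out wt animals 4 and 5 together were added after seeing the data, as were the ratios and sums by assigned subunit. Genes named in the text were the triplicated pair, called members, the 5 partners with the smallest p per genotype fit, the S18 homologues, the 5 called members per direction with the largest region difference and no overlap, the 3 highest and 3 lowest per length, the 5 most alike between regions over animals, and the called or leading gene of each other list, with Gabpa and Tfb1m. Slc5a3, Mrpl34 and Mrpl52 were named after their values were seen. The members, lists and rules were chosen with earlier results of these data known.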

Additional observations from a re-analysis of the deposited data

Results flagged for a closer look

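Each value below lay apart from the other libraries of its group by Dixon's criterion for the gap over the range. Of 136 groups of values examined, 12 met it, and chance gives about 1 in 20. The criterion was applied to the named members, to the median of the partners, to the ratios of the triplicated pair to partners named Mrpl or Mrps and to the share of mitochondrial mRNAs.

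In the HIP, Mrps17 was highest in wt replicate 1 at 59.5 CPM and in Ts66Yah replicate 6 at 64.7 CPM. Mrps18a was highest in Ts66Yah replicate 2 at 45.5 CPM, Mrpl16 lowest in Ts66Yah replicate 5 at 17.7 CPM, and Mrpl27 lowest in wt replicate 2 at 7.59 CPM. In the EC, Mrpl48 was lowest in wt replicate 2 at 24.7 CPM, and Mrpl35 lowest in Ts66Yah replicate 2 at 17.1 CPM. The EC library of wt replicate 5 was highest for Mrpl20 at 64.7 CPM and for Mrpl28 at 53.0 CPM. The EC library of Ts66Yah replicate 5 was highest for Mrps14 at 44.8 CPM, for the median of the partners, 0.19 above the wt mean on the log2 scale, and for mitochondrially encoded mRNAs, at 4.92% of its counts.

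Mrpl39 and Mrps6 met the criterion in no group. No interaction of genotype and region was called for a member.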

How the results depend on the processing

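Mrpl39 was called in each region and in the sums under every alternative that was run. Mrps6 was higher under every alternative, but its HIP call was lost with the replicate number as a block (log2 fold change 0.52, adjusted p = 0.140, 1 member called) and with a block for the range of animal numbers (0.46, adjusted p = 0.0971, 1 member called), which leaves out wt replicate 1. Its EC call was gained with DESeq2 (0.50, adjusted p = 0.00183, 2 members called) and with all 22 libraries in one fit (0.50, adjusted p = 0.0154, 2 members called). The causes were not tested. Over all alternatives the adjusted p of Mrps6 lay between 2.93e-05 and 0.140 for the HIP, and between 0.00183 and 0.325 for the EC. Leaving out each animal gave 0.46 to 0.59 for Mrps6 in the HIP (1 to 2 members called) and 0.46 to 0.59 in the EC (1 to 2 members called). The partners called were 0 throughout, except with DESeq2 in the HIP, which called 1, Mrps17, with no share over all genes beside it. The block by replicate number changed no other genotype call. Same-numbered wt and Ts66Yah libraries deviated together at -0.01 to 0.06 in the HIP and 0.02 to 0.18 in the EC, and 0 of 5 and 3 of 5 wt libraries were most like their own number.

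Between regions, the animal as a replicate block gave 28 members higher in wt EC and 2 lower in Ts66Yah EC. The filter at 1 CPM and the GC correction each gave 2 lower in wt EC. Leaving out each animal gave 12 to 21 higher in wt, 30 to 40 higher in Ts66Yah and 1 to 2 lower in Ts66Yah. Low counts limit Mrps34 and Mrpl53 in particular, at 11 to 277 and 0 to 16 reads per library. On the same strand, 88.0% of the exon bases of Mrpl53 overlap Gm42688, and 37.0% of those of Mrps34 overlap Nme3. The part of these overlaps in the low counts was not tested. No p-value here says that a partner is unaffected. Replicates are single mice.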
